A study of Mus musculus with 6 samples.

Results

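The 57 genes described here are cell cycle and DNA replication genes, chosen by gene symbol from known roles in the cycle. Their values did not enter the rule, but earlier results of these data were known when they were chosen. They comprise 23 genes of S phase, 20 genes of mitosis and 14 other genes, namely 8 G1 cyclins and kinases, 2 E2F activators and 4 CDK inhibitors. All 57 were found among the 34745 genes of the count table, and all 57 passed the filter on low counts, which kept 12537 genes. RNAseq compared M-MDSCs, the monocytic subset of myeloid-derived suppressor cells, between Lyz-mTOR mice and wild-type (WT) mice, with 3 libraries in each group. Lyz-mTOR mice carry mTOR flox/flox alleles together with Lyz-Cre, in which the recombinase is expressed from the lysozyme gene in myeloid cells, so that cells outside that lineage keep mTOR. Both groups are labelled as C57BL/6, and no floxed allele or Cre is named for the WT mice. The cells are labelled as sorted from bone marrow, and the study describes them as induced from bone marrow in culture with GM-CSF and IL-6. Age is not given in the sources used here. The number of mice stated in the methods equals the number of libraries in a group, but the labels do not tie a library to a mouse, so p-values measure the spread between these libraries only.

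Cells enter the cycle when D-type cyclins with CDK4 or CDK6, and then cyclin E with CDK2, phosphorylate the retinoblastoma protein and release E2F factors, which switch on the genes of DNA replication. Genes of mitosis are switched on later, largely through CHR elements and CCAAT boxes in their promoters, and cyclin B with CDK1 drives entry into mitosis. CDK inhibitors hold these kinases back. The kinase mTOR couples nutrients and growth factors to protein synthesis and cell growth, and bone marrow progenitors stop dividing as they mature into myeloid effector cells.

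Expression in mTOR-/- and WT libraries was compared by the quasi-likelihood F test of edgeR, with p-values adjusted over all tested genes. A differentially expressed gene (DEG) had to differ by 2-fold or more with an adjusted p under 0.05. No cell cycle gene was a DEG, against 212 DEGs (1.69%) among all tested genes. With no fold threshold 2 of 57 passed, against 507 (4.04%) of all tested genes, with 2 lower in mTOR-/- M-MDSCs (1.87% of all tested genes) and 0 higher (2.18% of all tested genes). These were Rrm2, the small subunit of ribonucleotide reductase, at 1.54-fold below WT (95% interval 1.22 to 1.92) and Cdk1, the mitotic kinase, at 1.65-fold below WT (95% interval 1.32 to 2.06). An unadjusted p under 0.05 was reached by 15 of 57 genes, against 21.2% of all tested genes, with 14 lower (9.52% of all tested genes) and 1 higher (11.7% of all tested genes). DESeq2's Wald test also gave 0 DEGs among the 57, although Ccnd1, which was higher, passed its adjusted threshold and fell just short of 2-fold. The log2 fold change, mTOR-/- over WT, was below 0 for 48 of 57 genes, against 49.4% of all tested genes. Its median was -0.19, or 1.14-fold below WT, against 0.00 over all tested genes. The 95% interval lay within 2-fold in either direction for 49 of 57 genes (71.4% of all tested genes), so for these genes a change of 2-fold lay outside the interval.

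Promoters of the S phase and mitosis genes are shown because the 2 lists are known for different motifs. RefSeq promoters on GRCm38.p6 were matched by symbol for 47 of 57 genes. The genes without an entry were Ccne2, Aurkb, Tpx2, Ccnd2, Ccnd1, Gins1, Gins2, Pole, Ccna2 and Mcm4. Motifs were searched on both strands of the 300-base windows: the E2F site, spelled TTTCCCGC, TTTGGCGC, TTTCGCGC or TTTGCCGC, the CHR element TTTGAA, and the CCAAT box. The spellings of the E2F site can overlap each other. Printed below are the bases from 250 before to 20 after the annotated start, 5′ to 3′ on the strand of the gene, with motif letters of either strand in capitals. The first 2 are S phase genes, Rrm2 at chr12:24708004-24708273 on the forward strand and Mcm6 at chr1:128359686-128359955 on the reverse strand. The others are genes of mitosis, Cdk1 at chr10:69352893-69353162, Ccnb2 at chr9:70421535-70421804 and Top2a at chr11:99024170-99024439, all on the reverse strand.
Rrm2: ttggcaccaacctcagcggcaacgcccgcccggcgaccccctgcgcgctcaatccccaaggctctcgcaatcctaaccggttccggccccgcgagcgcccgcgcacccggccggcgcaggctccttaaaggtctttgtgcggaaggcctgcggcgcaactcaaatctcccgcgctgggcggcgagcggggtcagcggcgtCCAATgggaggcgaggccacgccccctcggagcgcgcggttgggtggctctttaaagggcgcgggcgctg
Mcm6: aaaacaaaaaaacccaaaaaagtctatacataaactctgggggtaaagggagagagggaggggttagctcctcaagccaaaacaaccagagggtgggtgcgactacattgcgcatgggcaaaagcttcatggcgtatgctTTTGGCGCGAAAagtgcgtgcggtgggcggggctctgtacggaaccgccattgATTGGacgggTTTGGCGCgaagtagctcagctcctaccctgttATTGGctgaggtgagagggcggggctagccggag
Cdk1: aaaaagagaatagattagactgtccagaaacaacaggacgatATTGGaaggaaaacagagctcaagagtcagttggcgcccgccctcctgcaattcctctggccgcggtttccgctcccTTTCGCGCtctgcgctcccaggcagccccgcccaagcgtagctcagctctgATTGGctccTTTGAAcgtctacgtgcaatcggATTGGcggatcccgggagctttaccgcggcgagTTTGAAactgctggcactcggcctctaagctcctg
Ccnb2: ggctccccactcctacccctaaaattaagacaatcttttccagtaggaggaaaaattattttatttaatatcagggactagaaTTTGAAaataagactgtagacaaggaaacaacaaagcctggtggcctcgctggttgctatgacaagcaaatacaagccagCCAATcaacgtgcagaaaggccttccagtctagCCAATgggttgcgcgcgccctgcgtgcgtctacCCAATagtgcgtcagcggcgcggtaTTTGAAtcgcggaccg
Top2a: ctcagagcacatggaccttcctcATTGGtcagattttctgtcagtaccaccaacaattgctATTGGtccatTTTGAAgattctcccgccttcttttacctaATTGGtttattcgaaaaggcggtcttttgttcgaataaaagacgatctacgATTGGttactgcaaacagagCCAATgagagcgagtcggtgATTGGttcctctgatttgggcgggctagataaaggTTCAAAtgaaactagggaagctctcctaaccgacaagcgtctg
The Mcm6 promoter held 3 E2F matches, of which the first 2 overlap, and 2 CCAAT boxes. The Cdk1 promoter held 1 E2F match, 2 CHR elements and 3 CCAAT boxes. In the Ccnb2 promoter 2 CHR elements and 3 CCAAT boxes were found, and in the Top2a promoter 2 CHR elements and 6 CCAAT boxes. In the Rrm2 window only 1 CCAAT box was found among the motifs searched.

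Over the promoters with an entry, an E2F match was present in 9 of 19 S phase genes (47.4%) and in 1 of 17 genes of mitosis (5.88%), Cdk1, against 2.6% of all 27025 promoters. A CHR element was present in 3 of 19 S phase genes (15.8%) and in 11 of 17 genes of mitosis (64.7%), against 20.2% of all promoters. CCAAT boxes were present in 12 of 19 (63.2%) and 15 of 17 (88.2%), against 41.1% of all promoters. Of the 11 other genes with an entry, 2 held an E2F match (Cdk2 and E2f2), 1 held a CHR element (E2f2) and 6 held a CCAAT box. The shares are a description of the letters in these windows.

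**Figure D1:**
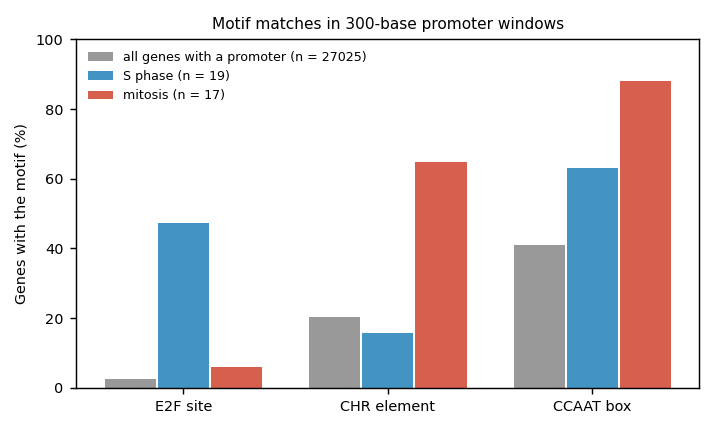
Share of promoters (%, vertical axis) with an E2F site, a CHR element or a CCAAT box in the 300-base RefSeq windows of all genes (grey, n = 27025), S phase genes (blue, n = 19) and genes of mitosis (red, n = 17). The E2F site was found in 47.4% of S phase genes and the CHR element in 64.7% of genes of mitosis.

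The libraries held 12.3 to 12.9 M counts in the mTOR-/- group and 14.1 to 14.8 M in the WT group, and levels below are CPM, counts relative to library sizes scaled by TMM. Counts of the 57 genes ran from 45 to 9272 per library. Across all tested genes mTOR-/- replicate 3 stood apart, with correlations of 0.955 and 0.952 to the other mTOR-/- libraries. These correlated at 0.973 with each other, and the WT libraries at 0.978 to 0.981. Replicates 1 and 2 of mTOR-/- correlated with the WT libraries at 0.957 to 0.966, above their correlations with mTOR-/- replicate 3. Mtor (chr4:148448611-148557683, mm10) showed no difference past the threshold at the level of the whole gene, at 72.4 ± 3.24 CPM in mTOR-/- and 65.2 ± 5.01 CPM in WT (SD, n = 3, adjusted p = 0.442 by edgeR). The floxed exons were not counted apart, so these counts do not check the deletion. The study states that loss of mTOR in MDSCs was verified, by data that were not examined here.

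Markers of the labelled cell type were present in both groups, with Itgam, which encodes CD11b, at 647 to 1030 CPM and Csf1r at 263 to 396 CPM, while Cx3cr1 was at or under 1 CPM in all libraries. Of 7 monocyte markers, Csf1r and Fn1 rose and Ly6c2 and Lyz2 fell. Lyz2 is a lysozyme gene, and the part of the Lyz-Cre allele in its fall was not tested. Ly6c2 encodes the Ly6C antigen that marks monocytic cells, and it was at 72.6 to 104 CPM in mTOR-/- and 116 to 226 CPM in WT (adjusted p = 0.0426 by edgeR). Some markers of other cells that can divide in marrow cultures also differed between the groups. The summed level of 6 progenitor markers was 236 to 300 CPM in mTOR-/- and 331 to 358 CPM in WT, and 1 of them, Kit, fell. The others did not pass, with log2 fold changes of 0.11 for Cd34, 0.03 for Sox4, 0.01 for Myb, -0.46 for Flt3 and -0.52 for Meis1. Of 6 mast cell and basophil markers, Cpa3 and Mcpt8 fell. The summed level was 156 to 221 CPM in mTOR-/- and 721 to 900 CPM in WT. Cpa3 alone made up most of this sum, at 111 to 154 CPM in mTOR-/- and 632 to 769 CPM in WT. The remaining markers did not pass, with log2 fold changes of -0.65 for Ms4a2, 0.45 for Fcer1a, -2.05 for Tpsb2 and -0.57 for Prss34. Of 5 granulocyte precursor markers, only Ctsg fell, and the sums of 96.1 to 150 CPM and 108 to 191 CPM overlapped. Elane and Prtn3 lay the other way, at log2 fold changes of 0.39 and 0.21, while Mpo and Ms4a3 were both at -0.38, and none of these passed. Of 8 neutrophil markers, Ly6g and S100a8 rose and Ltf and Ngp fell (sums of 2360 to 2690 CPM and 2100 to 2420 CPM). Ly6g encodes the Ly6G antigen, which M-MDSCs are defined as lacking. It was at 14.1, 10.7 and 15.1 CPM in mTOR-/- and 0.853, 2.39 and 5.06 CPM in WT (adjusted p = 0.0365 by edgeR). Among the other lists, 1 of 6 dendritic cell markers, Ccr7, rose (191 to 262 CPM and 66.2 to 150 CPM). Itgax, which did not pass, made up most of this sum, at 128 to 197 CPM and 52.0 to 117 CPM. Cd209a, Xcr1 and Siglech were at or under 1 CPM in all libraries. Of 5 stromal markers 1, Pecam1, fell (153 to 197 CPM and 239 to 261 CPM). Pecam1 itself made up most of this sum, at 116 to 163 CPM and 208 to 228 CPM. Col1a2 and Cdh5 were at or under 1 CPM in all libraries. None of 7 macrophage markers (535 to 653 CPM and 660 to 739 CPM) or 7 lymphoid markers (3.50 to 5.58 CPM and 2.94 to 4.62 CPM) passed. The 4 erythroid markers over 1 CPM in any library summed to 2.12 to 3.29 CPM in mTOR-/- and 6.68 to 11.2 CPM in WT, and none passed. The part of these cells in the differences below was not tested, and in bulk RNA fewer dividing cells and less RNA per cell cannot be told apart.

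Of the 2 phases, the S phase list had the median closer to 0, a log2 fold change of -0.12. In this list 20 of 23 genes were below 0, with a range from -0.73 to 0.39. At any fold 1 gene, Rrm2, passed, and it was lower (4.35%, against 4.04% of all tested genes in either direction). An unadjusted p under 0.05 was reached by 5 of 23 (21.7%, against 21.2% of all tested genes), all lower (9.52% of all tested genes). The groups did not overlap for 5 genes that were lower in every mTOR-/- library (Pcna, Gins1, Rrm1, Rrm2 and Uhrf1), against 13.9% of all tested genes, and for 1 that was higher, Pold1, against 14.5%.

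Ribonucleotide reductase, which makes deoxyribonucleotides for DNA synthesis, showed the clearest difference in this list. Rrm2 (ENSMUSG00000020649, chr12:24708241-24714146, mm10) was at 48.8, 56.6 and 67.9 CPM in mTOR-/- replicates 1, 2 and 3 and at 97.4, 77.1 and 91.5 CPM in WT replicates 1, 2 and 3. Every mTOR-/- library was below every WT library, and the log2 fold change was -0.62 (SE 0.14, adjusted p = 0.0483 by edgeR). The call was lost when any library other than mTOR-/- replicate 3 was left out. The adjusted p was then 0.117 without mTOR-/- replicate 1, 0.0807 without mTOR-/- replicate 2, 0.17 without WT replicate 1, 0.0703 without WT replicate 2 and 0.178 without WT replicate 3, with log2 fold changes from -0.76 to -0.51 over all 6 omissions. Rrm1, the large subunit, was at 61.2, 77.5 and 70.8 CPM in mTOR-/- and 97.6, 82.1 and 89.9 CPM in WT, in the same order of replicates. Its groups did not overlap either, but its log2 fold change of -0.36 (SE 0.12) did not pass (adjusted p = 0.132 by edgeR).

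Other enzymes of nucleotide supply were less regular. Tk1, the thymidine kinase of the salvage pathway, was at 9.05, 6.64 and 14.8 CPM in mTOR-/- and 17.8, 15.2 and 14.7 CPM in WT. Replicate 3 of mTOR-/- reached the WT range while the other replicates lay below it, and the log2 fold change was -0.65 (SE 0.28, adjusted p = 0.222 by edgeR). Without mTOR-/- replicate 3 it was -1.03 with an adjusted p of 0.0372, which made Tk1 a DEG. Tk1 overlaps Afmid and Gm20708 on the opposite strand, with which reads may be shared. Tyms, thymidylate synthase, had a log2 fold change of -0.03.

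The replicative helicase, loaded at origins by Cdc6 and Cdt1 and made of the Mcm2 to Mcm7 ring with Cdc45 and the GINS proteins, had genes that differed in sign and size. The 6 ring genes had log2 fold changes between -0.19 and -0.03, and none of them passed. Mcm6, which had the most counts in the S phase list, was at 122, 140 and 139 CPM in mTOR-/- and 169, 127 and 159 CPM in WT. WT replicate 2 lay within the mTOR-/- range, and the difference of -0.19 was within the spread (adjusted p = 0.421 by edgeR). Gins1 had the largest change of the list at -0.73 (SE 0.27), from low levels of 6.03, 4.94 and 4.21 CPM in mTOR-/- and 9.60, 6.49 and 9.05 CPM in WT. No mTOR-/- library reached the WT range, and the adjusted p was 0.166 by edgeR. Gins2, another subunit of the same complex, lay the other way at 8.48, 16.0 and 12.8 CPM in mTOR-/- and 11.2, 10.5 and 6.84 CPM in WT, a log2 fold change of 0.39 (SE 0.28, adjusted p = 0.461 by edgeR). Its groups overlapped. The loading factors Cdc6 and Cdt1 had log2 fold changes of -0.34 and -0.17, Cdc45 of -0.06 and Mcm10 of 0.02, with overlapping groups.

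Among the genes of DNA synthesis, Pcna, the sliding clamp of the polymerases, was at 94.3 ± 5.30 CPM in mTOR-/- and 115 ± 12.1 CPM in WT (SD, n = 3), a log2 fold change of -0.29 with an adjusted p of 0.169 by edgeR. Pcna has a near-identical copy, Pcna-ps2, with which reads may be shared, and that copy was also lower in every mTOR-/- library (log2 fold change -0.38, adjusted p = 0.12 by edgeR). Pold1, the catalytic subunit of polymerase delta, was at 42.0, 39.9 and 58.3 CPM in mTOR-/- and 36.5, 39.2 and 36.6 CPM in WT. All mTOR-/- libraries lay above WT, although replicate 2 of each group lay close together, and the log2 fold change of 0.32 did not pass (adjusted p = 0.286 by edgeR). The catalytic subunits Pola1 and Pole were both at -0.02, and Rfc4, a subunit of the clamp loader, was at -0.23. Uhrf1, which carries DNA methylation through replication, had a log2 fold change of -0.21, and its WT libraries varied by little (56.2 ± 0.339 CPM, SD, n = 3). Fen1, the flap endonuclease of lagging strand maturation, varied most in the list, from 12.9 CPM in WT replicate 2 to 41.2 CPM in WT replicate 3, a 3.19-fold range within WT. It overlaps Tmem258 on the opposite strand, and the strand setting of the counting is not given in the sources used here.

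The mitosis list had a median log2 fold change of -0.25, with 18 of 20 genes below 0 and a range from -0.72 to 0.13. At any fold 1 gene, Cdk1, passed, and it was lower (5.0%, against 4.04% of all tested genes in either direction). An unadjusted p under 0.05 was reached by 6 of 20 (30.0%, against 21.2% of all tested genes), all lower (9.52% of all tested genes). The groups did not overlap for 4 genes, Top2a, Ccna2, Ccnb2 and Cdk1, all lower in mTOR-/- (20.0%, against 13.9% of all tested genes).

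Cdk1, the kinase of mitotic entry, and Ccnb2, one of its cyclins, had the lowest log2 fold changes of the list. Cdk1 (ENSMUSG00000019942, chr10:69336635-69352938, mm10) was at 31.5, 29.6 and 27.7 CPM in mTOR-/- and 54.0, 40.9 and 51.6 CPM in WT. Every mTOR-/- library was below every WT library, with a log2 fold change of -0.72 (SE 0.14, adjusted p = 0.0259 by edgeR). The call was lost without mTOR-/- replicate 1 (adjusted p = 0.0609), mTOR-/- replicate 2 (0.0519), WT replicate 1 (0.111) or WT replicate 3 (0.132), with log2 fold changes from -0.84 to -0.65 over all 6 omissions. Ccnb2, cyclin B2 (chr9:70407689-70421554, mm10), was at 20.5, 25.4 and 26.2 CPM in mTOR-/- and 47.1, 31.1 and 39.5 CPM in WT, a log2 fold change of -0.71 (SE 0.18). The groups did not overlap, and the adjusted p of 0.0636 by edgeR missed the threshold, while DESeq2's Wald test gave 0.00847. Ccnb1, cyclin B1, had a log2 fold change of -0.19 with overlapping groups. Ccna2, cyclin A2, which acts in S phase and into mitosis, was at 43.6 ± 3.55 CPM in mTOR-/- and 56.9 ± 7.27 CPM in WT (SD, n = 3), a log2 fold change of -0.38 (adjusted p = 0.146 by edgeR). Cdc25b, a phosphatase that activates CDK1, was at 0.13. By FPKM, which scales for gene length, Ccnb2 was at a mean of 15.7 in mTOR-/- and 25.3 in WT, above Cdk1 at 5.95 and 9.68 and Ccnb1 at 2.50 and 2.82.

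Top2a, the topoisomerase that untangles sister chromatids, had the most counts in the mitosis list. It was at 169, 203 and 164 CPM in mTOR-/- and 276, 205 and 259 CPM in WT. Every mTOR-/- library was below WT, with mTOR-/- replicate 2 and WT replicate 2 next to each other, and the log2 fold change was -0.47 (SE 0.13, adjusted p = 0.0874 by edgeR and 0.0211 by DESeq2's Wald test). Mki67, which encodes the proliferation antigen Ki-67, was at 189, 201 and 218 CPM in mTOR-/- and 242, 166 and 212 CPM in WT. All mTOR-/- libraries lay within the WT range, and its log2 fold change was -0.03 with a 95% interval from -0.33 to 0.27.

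Of the genes of the anaphase-promoting complex, Ube2c, its ubiquitin-conjugating enzyme, was at 45.9, 44.5 and 38.9 CPM in mTOR-/- and 64.7, 45.4 and 68.2 CPM in WT, a log2 fold change of -0.46 (SE 0.16, adjusted p = 0.152 by edgeR). WT replicate 2 lay within the mTOR-/- range. Cdc20, an activator of the same complex, was at -0.24. Among genes of the spindle, Nusap1 was at 22.9, 30.5 and 19.4 CPM in mTOR-/- and 34.5, 30.1 and 35.3 CPM in WT, a log2 fold change of -0.46 (SE 0.18, adjusted p = 0.193 by edgeR). Here mTOR-/- replicate 2 lay just above WT replicate 2. The spindle genes Tpx2 and Kif11 had log2 fold changes of -0.26 and -0.19, and the mitotic kinases Plk1 and Aurka of -0.38 and -0.18. The checkpoint genes Bub1 and Bub1b were at -0.23 and -0.26, and the kinetochore genes Cenpe and Cenpf at -0.19 and -0.36. Aurkb and Birc5, partners in the chromosomal passenger complex, were at 0.09 and -0.08. None of these 10 passed the adjusted threshold, and all of their groups overlapped.

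**Figure D2:**
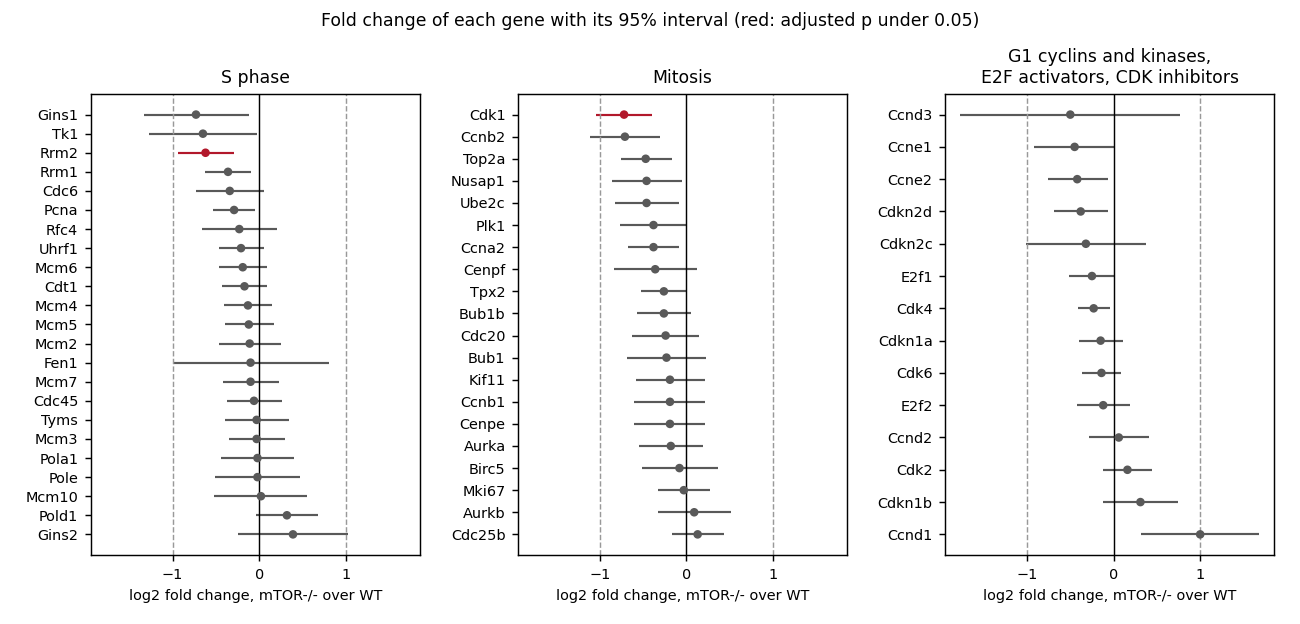
Log2 fold change of each gene (horizontal axis, mTOR-/- over WT, with 95% intervals from the edgeR fit) for S phase, mitosis and the 14 other genes; dashed lines mark 2-fold. Rrm2 and Cdk1 (red) were the 2 genes with an adjusted p under 0.05, and 48 of 57 points lay below 0.

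The libraries within a group differed in the same direction across many of these genes. WT replicate 2 was the lowest WT library for 18 of 23 S phase genes and 17 of 20 genes of mitosis, or 38 of 57 genes in all (66.7%), against 33.7% of all tested genes. WT replicate 1 was the highest of all 6 libraries for 30 of 57, against 1910 of all 12537 tested genes. It was the highest WT library for 34 of 57 (59.6%), against 33.6% of all tested genes. The 14 genes outside S phase and mitosis did not share this order. Among these WT replicate 1 was the lowest WT library for 8 and the highest for 2, and WT replicate 2 the lowest for 3. In the mTOR-/- group replicate 1 was the lowest for 17 of 23 S phase genes (73.9%, against 28.9% of all tested genes), but for 8 of 20 genes of mitosis. The mean log2 CPM of the S phase list was 4.95, 5.21 and 5.20 in mTOR-/- and 5.44, 5.09 and 5.31 in WT, so that WT replicate 2 lay below mTOR-/- replicates 2 and 3. The group means of 5.12 ± 0.14 and 5.28 ± 0.18 (SD, n = 3) differed by -0.16, less than the WT range of 0.35. The mean of the mitosis list was 5.31, 5.34 and 5.41 in mTOR-/- and 5.80, 5.38 and 5.70 in WT, with WT replicate 2 just below mTOR-/- replicate 3. Its group means of 5.35 ± 0.05 and 5.63 ± 0.22 differed by -0.27, against a WT range of 0.42. The S phase mean minus the mitosis mean was -0.36, -0.13 and -0.21 in mTOR-/- and -0.36, -0.28 and -0.39 in WT, with overlapping groups, so the smaller median of the S phase list was not set apart from that of mitosis by these libraries. Without WT replicate 2 the median log2 fold change was -0.21 for S phase and -0.37 for mitosis, and without WT replicate 1 it was -0.07 and -0.16. Without mTOR-/- replicate 3, the library that stood apart, the medians were -0.18 and -0.32. Then 3 of 57 genes passed, Cdk1, Rrm2 and Tk1, against 464 of the 12799 genes tested in that setting. The S phase median was -0.08 without mTOR-/- replicate 1 and -0.22 without mTOR-/- replicate 2. Genes of a list can move together and are not replicates, so no test was made on these means.

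**Figure D3:**
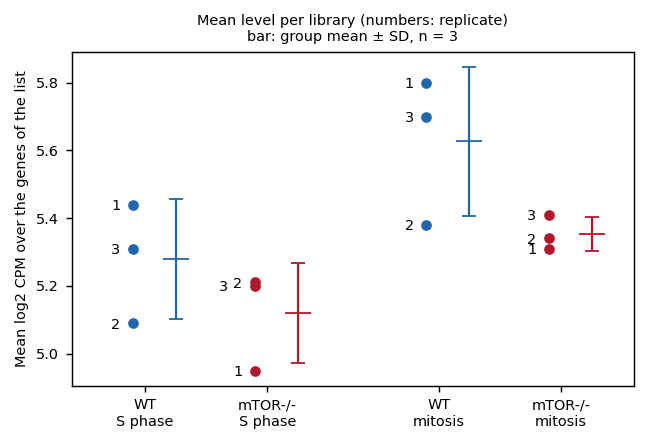
Mean log2 CPM (vertical axis) over the 23 S phase genes and the 20 genes of mitosis in each library, with replicate numbers beside the points and the group mean ± SD (n = 3) as bars. WT replicate 2 sits at 5.09 and 5.38, within the range of the mTOR-/- libraries, while WT replicates 1 and 3 sit above all mTOR-/- libraries in both lists.

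**Figure D4:**
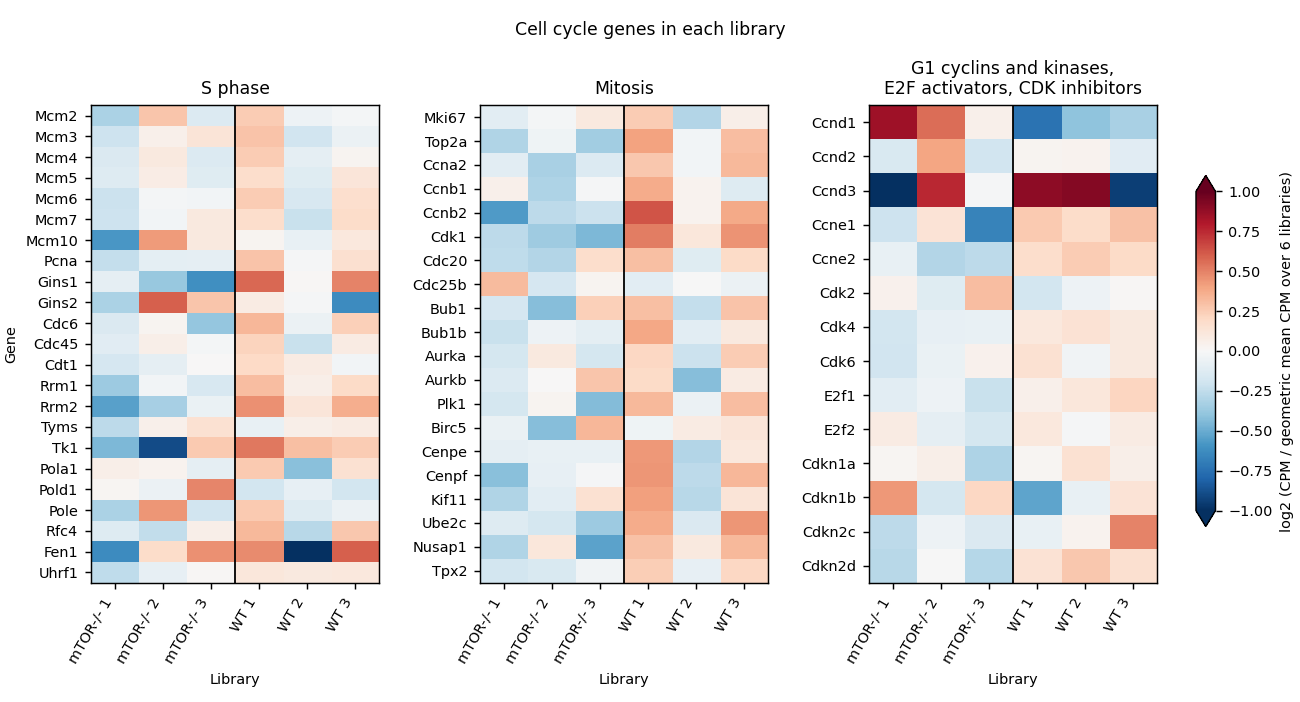
CPM of the 57 genes in each library as log2 of the ratio to the geometric mean of the gene over 6 libraries (colour, limited at -1 and 1), with mTOR-/- libraries left and WT libraries right of the line. WT replicate 2 is paler or bluer than the other WT libraries in most S phase and mitosis genes, of which it was the lowest WT library in 18 of 23 and 17 of 20.

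None of the 8 G1 cyclins and kinases passed the adjusted threshold, and the median log2 fold change was -0.18. Ccnd1, cyclin D1 (chr7:144929931-144939869, mm10), was the 1 gene of the 57 that was higher with an unadjusted p under 0.05. It overlaps Oraov1 on the opposite strand, with which reads may be shared. Ccnd1 was at 9.62, 7.87 and 5.51 CPM in mTOR-/- and 3.20, 4.03 and 4.27 CPM in WT. The groups did not overlap, and the log2 fold change of 1.00 (SE 0.30, 95% interval 0.32 to 1.68) had an adjusted p of 0.103 by edgeR and 0.0446 by DESeq2's Wald test. By edgeR the WT over mTOR-/- fold was 0.501, just short of 2-fold, and Ccnd1 was not a DEG under either test. It was the least abundant of the D-type cyclins, with a mean FPKM of 1.83 in mTOR-/- and 0.903 in WT, against 23.4 and 22.1 for Ccnd2. Cyclin D2 was thus the most abundant per length, and it was at 251, 367 and 244 CPM in mTOR-/- and 284, 285 and 257 CPM in WT (log2 fold change 0.06). Ccnd3, cyclin D3, was at 21.4, 110 and 64.6 CPM in mTOR-/- and 121, 123 and 34.0 CPM in WT. Low and high libraries occurred in both groups, the highest was 5.75-fold above the lowest, and the log2 fold change of -0.50 had an SE of 0.56. Its SD within groups, 1.13 on the log2 scale, was at the 97.3rd percentile of all tested genes, where the median was 0.21. Ccnd3 overlaps Bysl on the opposite strand, whose counts had a log2 fold change of -0.10.

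The E cyclins, partners of CDK2 at the start of S phase, were both lower in every mTOR-/- library. Ccne1 was at 15.6, 19.8 and 11.3 CPM in mTOR-/- and 21.5, 20.4 and 22.0 CPM in WT (log2 fold change -0.45, SE 0.21, adjusted p = 0.247 by edgeR). Ccne2 was at 15.6, 13.4 and 13.7 CPM in mTOR-/- and 18.6, 19.6 and 18.8 CPM in WT (log2 fold change -0.42, SE 0.15, adjusted p = 0.162 by edgeR). Neither passed. Cdk4, the kinase partner of the D cyclins, was at 144, 155 and 156 CPM in mTOR-/- and 176, 181 and 175 CPM in WT. The groups did not overlap and the spread within them was small (SD 0.05 on the log2 scale, at the 1.52nd percentile of all tested genes), but the log2 fold change was -0.23 (adjusted p = 0.166 by edgeR). Cdk6, which pairs with the same cyclins, was at 118, 129 and 139 CPM in mTOR-/- and 150, 132 and 144 CPM in WT, a log2 fold change of -0.14. Cdk2 was at 97.6, 87.0 and 117 CPM in mTOR-/- and 83.2, 91.2 and 95.5 CPM in WT, a log2 fold change of 0.16. The groups of Cdk6 and Cdk2 overlapped.

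Neither E2F activator passed. E2f1, which activates replication genes, was at 38.1, 39.6 and 35.1 CPM in mTOR-/- and 42.4, 44.4 and 47.5 CPM in WT. Its groups did not overlap, with a log2 fold change of -0.25 (SE 0.12, adjusted p = 0.264 by edgeR). E2f2 was at 29.1, 25.9 and 24.4 CPM in mTOR-/- and 29.6, 27.3 and 29.1 CPM in WT, a log2 fold change of -0.12 with overlapping groups. Cdkn1a, the inhibitor p21 that p53 induces, was the most abundant of the 57 genes per length, with a mean FPKM of 178 in mTOR-/- and 194 in WT. It was at 577, 595 and 459 CPM in mTOR-/- and 579, 633 and 593 CPM in WT, and its log2 fold change of -0.15 had a 95% interval from -0.40 to 0.11. Cdkn1b, the inhibitor p27, lay the other way at 166, 109 and 142 CPM in mTOR-/- and 85.2, 117 and 135 CPM in WT, with overlapping groups (log2 fold change 0.31, adjusted p = 0.382 by edgeR). Cdkn2d, the INK4 inhibitor p19, was at 25.7, 31.0 and 25.5 CPM in mTOR-/- and 34.4, 37.6 and 34.8 CPM in WT. Every mTOR-/- library was below every WT library, and the log2 fold change of -0.38 (SE 0.14) did not pass (adjusted p = 0.157 by edgeR). Cdkn2c, the INK4 inhibitor p18, was low, at 3.67, 4.25 and 3.98 CPM in mTOR-/- and 4.19, 4.51 and 6.20 CPM in WT. So these inhibitors did not share a direction, and none of the 4 passed.

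**Figure D5:**
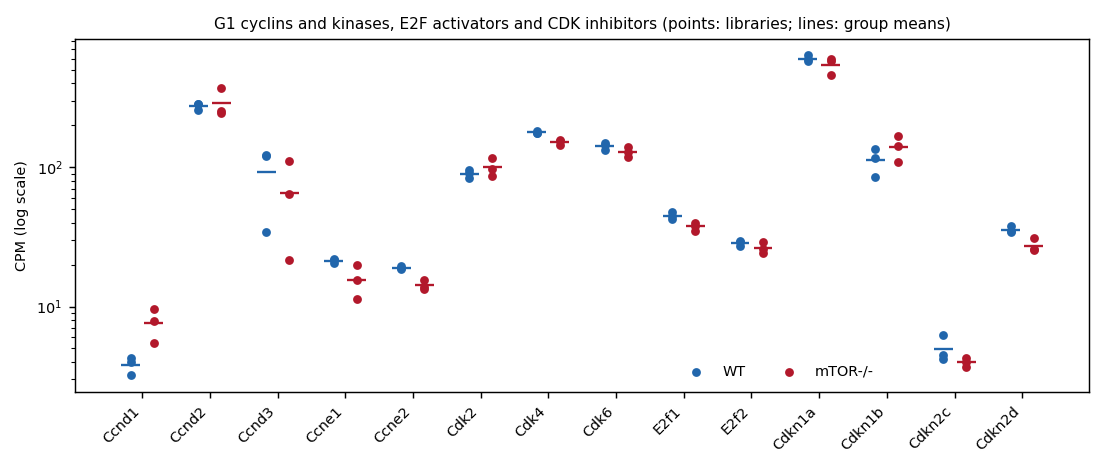
CPM (log scale) of the G1 cyclins and kinases, E2F activators and CDK inhibitors in each library, WT in blue and mTOR-/- in red, with lines at the group means (n = 3). Ccnd1 is the gene whose mTOR-/- libraries (5.51 to 9.62 CPM) all lie above WT (3.20 to 4.27 CPM), and Ccnd3 spreads from 21.4 to 123 CPM without regard to group.

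Further cell cycle genes were read from lists of 119 genes, of which 117 were tested, to set beside the genes above. None was a DEG (1.69% of all tested genes) and 1 passed at any fold (0.855%, against 4.04% of all tested genes). An unadjusted p under 0.05 was reached by 18 (15.4%, against 21.2% of all tested genes), 12 lower and 6 higher. A further 39 S phase genes had a median log2 fold change of -0.07, with 25 below 0, and none passed. A further 51 genes of mitosis had a median of -0.16, with 37 below 0, and none passed. Foxm1, the factor that activates genes of mitosis, lay the other way at 20.4, 21.7 and 20.1 CPM in mTOR-/- and 19.4, 10.8 and 11.5 CPM in WT (log2 fold change 0.58, adjusted p = 0.193 by edgeR), and it is named after its values were seen. The 15 further E2F and retinoblastoma family genes had a median of 0.03. Of 14 further brakes of the cycle and p53 pathway genes, 12 were tested, with a median of 0.15. An unadjusted p under 0.05 was reached by 4 that were higher (33.3%, against 11.7% of all tested genes). It was reached by 1 that was lower (8.33%, against 9.52%). In this list Btg2, an antiproliferative gene induced by p53, rose, from 120, 124 and 115 CPM in WT to 209, 170 and 239 CPM in mTOR-/- (log2 fold change 0.78, SE 0.13, adjusted p = 0.0106 by edgeR). Its groups were far apart relative to their spread, and the call was lost without WT replicate 1 (adjusted p = 0.0542), WT replicate 2 (0.0502) or WT replicate 3 (0.0637). The further CDK inhibitors in this list were near the floor and are named after their values were seen. Cdkn2b was at 1.87, 1.85 and 1.76 CPM in mTOR-/- and 0, 0.82 and 0.142 CPM in WT. Its log2 fold change of 2.46 (SE 0.91) did not pass (adjusted p = 0.165 by edgeR). Cdkn2a had 5, 9 and 14 counts in mTOR-/- and 0 in every WT library. Cdkn1c had 0, 6 and 0 counts in mTOR-/- and 8, 21 and 16 in WT, and neither was tested.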

How the data were processed

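RNAseq libraries from 3 mTOR-/- and 3 WT M-MDSC samples were grouped by their labels. The authors deposited read counts per gene, as whole numbers, and FPKM values per library. The study's methods name Bowtie2, HTSeq and mm10, while the submitters' processing notes list HISAT2 2.0.4, StringTie 1.3.0, GRCm38.p4 and mm9. Gene positions in the count table fit mm10: of the 57 genes, 48 had the same position in GENCODE M21. The annotation release and strand setting are not given in the sources used here, and 15 of the 57 genes overlap another expressed gene (over 1 CPM) on the opposite strand, with which reads may be shared. Deposited FPKM served only to compare levels between genes. The files' 24 other per-sample columns, and the authors' own fold changes and p-values in the other tables, were not used.

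Counts were analysed in R 4.3.3 with edgeR 4.0.16 (filterByExpr, minimum count 10 and minimum total 15; TMM; quasi-likelihood F test; Benjamini-Hochberg adjustment over 12537 genes; threshold 0.05). The biological coefficient of variation was 19%. Mean levels per library are log2 CPM with a prior count of 2, for which 0.5 was the alternative. An exact permutation test of 3 against 3 libraries cannot go below p = 0.1 and was not used. Alternatives were DESeq2 1.42.0, RLE and upper quartile normalization, no filter, at least 10 counts in every library, each library left out, and the replicate number as a block. The genes, lists and motifs were chosen with earlier results of these data known. Values per library were given for the 5 genes of the S phase and of the mitosis list with the largest change, the 1 of each with the most counts, and all 14 other genes. Mki67 and Pold1 were added after their values were seen.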

Additional observations from a re-analysis of the deposited data

How the results depend on the processing

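The direction of Rrm2, Cdk1, Ccnb2, Top2a and Ccnd1 held under all alternatives, and their calls did not. Over all 57 members, 5 passed at any fold under DESeq2 (Ccnb2, Ccnd1, Cdk1, Rrm2 and Top2a), against 1144 of all 12537 tested genes. Of the 5 members, 3 were in mitosis and 1 was among the genes outside S phase and mitosis. Without a filter on low counts 3 members passed, 2 of them genes of mitosis, against 694 of the 17309 genes tested in that setting. Leaving out 1 library gave 0 to 3 passing genes, 0 to 2 in S phase and 0 to 1 in mitosis, and 0 to 1 DEGs, Tk1 in S phase. Over all tested genes the number of DEGs was 357 under DESeq2 and 114 to 229 with 1 library left out. The number passing at any fold was 1144 under DESeq2 and 173 to 513 with 1 library left out. The median log2 fold change was -0.22 to -0.07 for S phase and -0.37 to -0.16 for mitosis with 1 library left out, closest to 0 without WT replicate 1. RLE and upper quartile normalization changed no call among the 57 genes.

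Same-numbered libraries did not deviate together over all tested genes (correlations -0.0764, -0.0252 and -0.0608). No pairing by number was seen, although a shared effect that is weak or limited to few genes could be missed. With the replicate block 279 genes passed at any fold over all tested genes, and 0 of the 57, 0 in S phase and 0 in mitosis (Cdk1 adjusted p = 0.0557 and Rrm2 0.0781). Under the block Mcm10 had a log2 fold change of -0.03 and Pola1 of 0.00; these were 0.02 and -0.02 without it. With 1 library left out the sign turned for genes near 0, whose log2 fold changes ranged from -0.30 to 0.01 for Mcm2, -0.13 to 0.11 for Mcm3, -0.24 to 0.25 for Mcm10, -0.18 to 0.03 for Cdc45, -0.13 to 0.07 for Tyms, -0.20 to 0.10 for Pola1, -0.29 to 0.12 for Pole, -0.47 to 0.17 for Fen1, -0.17 to 0.09 for Mki67, -0.01 to 0.22 for Cdc25b, -0.08 to 0.20 for Aurkb, -0.30 to 0.08 for Birc5 and -0.17 to 0.16 for Ccnd2. The causes were not tested. The median distance from the estimate to either end of the 95% interval was 0.36 on the log2 scale over the 57 genes, which limits what 3 libraries a group can show.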
